A study of Mus musculus with 7 samples.

Results

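The 4 wild-type arrays of a 7-array study are described here: the RNA of untreated bone marrow LSK cells of 4 wild-type FVB mice, numbers 21, 22, 23 and 24. LSK cells are negative for the surface antigens of mature blood lineages and positive for Sca-1 and c-Kit. The mice were adults and littermates of the other group, 3 FVB mice labelled TRAF6 transgenic, also adult and untreated, whose arrays enter only a closing comparison. The labels give neither the promoter of that transgene nor the sex of any mouse. Each mouse had 1 Affymetrix mouse exon array, so n = 4 counts mice. An LSK gate holds a mixture of cells, and in such bulk RNA fewer cells of a type and less RNA per cell cannot be told apart.

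The LSK gate is the usual starting point for work on mouse blood formation. It holds the rare long-term stem cells, which are mostly quiescent, together with multipotent progenitors that divide more and lean toward the myeloid, megakaryocytic or lymphoid lineages. Stem cells are kept in the marrow by signals through receptors such as c-Kit, the thrombopoietin receptor and Cxcr4, and by a network of transcription factors that includes Gata2, Runx1, Erg, Meis1 and Lmo2. Progenitors are known to transcribe some genes of a lineage before they commit to it, which is called lineage priming.

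The deposited table gave 1 log2 signal per array for 23332 transcript clusters, the array's gene-level units. Of these, 14996 carried 1 gene symbol, for 14860 genes; 135 genes had several clusters, and the cluster with the highest wild-type mean was kept. Each array's background level was set as the 95th percentile of its signals for 839 sensory receptor clusters (olfactory, vomeronasal, trace amine and taste receptors), whose products serve the sense organs. It was 5.95, 5.96, 5.88 and 5.78 on arrays 21 to 24. A gene was called above background when limma's moderated two-sided test of signal minus background over the 4 arrays gave a Benjamini-Hochberg adjusted p under 0.05 over all 23332 clusters with a positive mean. By this rule 11315 clusters (48.5%) and 7887 genes (53.1%) were called. Genes in the top 10% of means that were also called form the high band (1486 genes, means of at least 8.86), and the other 6401 called genes form the middle band. Of the 6973 genes not called, 6326 had a mean below background and 647 a mean above it. Probes differ in how brightly they bind, and the signals are not scaled to transcript length, so the bands rank array signal and are not amounts of RNA.

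**Figure D1:**
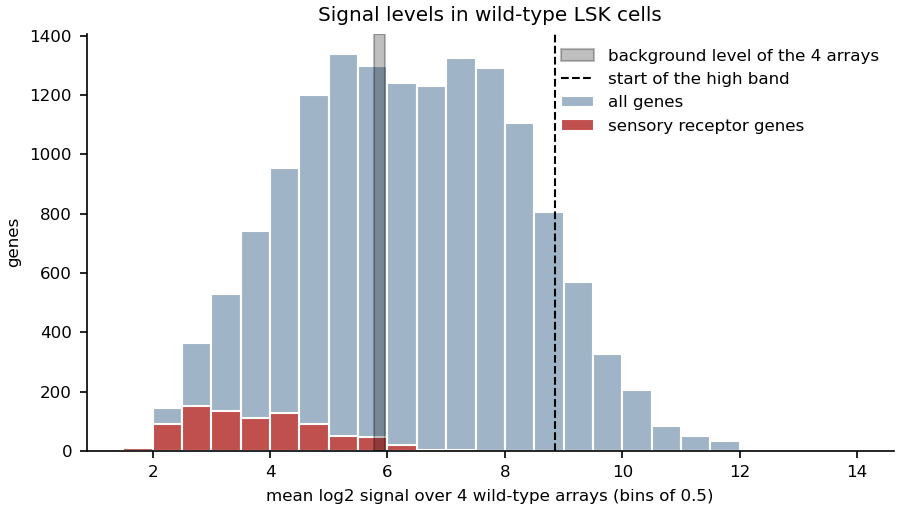
Number of genes (vertical axis) by mean log2 signal over the 4 wild-type arrays (horizontal axis, bins of 0.5), with sensory receptor genes in red, the range of the 4 background levels as a grey strip and the start of the high band as a dashed line at 8.86. Of 838 sensory receptor genes 19 (2.27%) were called above background, while the other genes reach up to 13.84.

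The highest signals belonged to the machinery that every cell uses, with a few genes of blood cells among them. The top rank was AY036118 at 13.84 ± 0.07 (SD, n = 4), followed by the cytoplasmic actin Actb at 12.99 ± 0.07. Translation was represented by the poly(A)-binding protein Pabpc1 (12.58 ± 0.01), the ribosomal proteins Rps20 (12.57 ± 0.21) and Rps9 (12.02 ± 0.06) and the elongation factor Eef2 (12.25 ± 0.13). B2m, the light chain of class I molecules, stood at 12.55 ± 0.03, and the ferritin heavy chain Fth1, which stores iron, at 12.25 ± 0.09. The rest of the first 15 were the chaperone Hspa5, the small nucleolar RNA host Gas5, Laptm5, a lysosomal protein of blood cells, nucleolin (Ncl), Ccdc50, the peroxide-removing enzyme Gpx1 and the GTPase Rac1, all between 11.96 and 12.38. Among the first 100 of 14860 genes were also Mpo at rank 33, Pf4 at 37, Plek at 56 and Cd34 at 74, known from blood cells, and the cell cycle inhibitor Cdkn1a at 39.

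The sort could be checked on c-Kit and on the antigens it was meant to exclude. Kit, the stem cell factor receptor, read 10.55, 10.36, 10.51 and 10.57 on arrays 21 to 24, above 8.86 on every array. Ly6a, which encodes Sca-1, was not analysed here because no cluster carried its symbol alone. Of 11 measured genes for lineage antigens, 9 were not called, among them Cd3e (5.89 ± 0.19), Cd4 (5.55 ± 0.13), Cd8a (4.71 ± 0.20), the macrophage antigen Adgre1 (4.21 ± 0.12) and the B cell antigen Ms4a1 (2.92 ± 0.15). The 2 that were called lay just above background: Itgam, the integrin chain CD11b, at 6.19 ± 0.04 and the T cell antigen Cd5 at 6.18 ± 0.06 (limma adjusted p = 0.0121 and 0.01025). Neither was called when array 23 was left out, nor at an adjusted p of 0.01. The called share of the lineage antigens was 18.2%, against 53.1% of all genes. Cd34 and Flt3, which divide the LSK gate into stem cells and multipotent progenitors in flow cytometry, were both in the high band, Cd34 at 11.12 ± 0.05 and Flt3 at 9.52 ± 0.11.

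**Figure D2:**
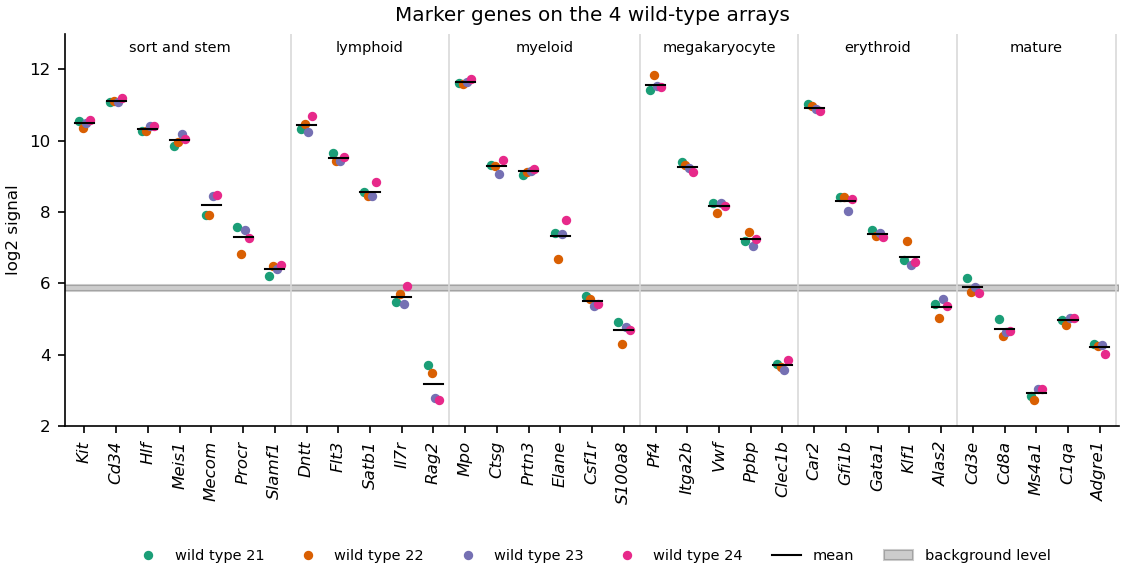
Log2 signal (vertical axis) of marker genes grouped by lineage (horizontal axis), with 1 point per wild-type array, a bar at the mean of 4 and the range of the background levels as a grey strip. Kit, Cd34, Mpo, Pf4 and Car2 lie between 10.36 and 11.83 on every array, and Rag2, S100a8, Clec1b, Cd8a, Ms4a1, C1qa and Adgre1 lie below the strip.

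Genes known to mark long-term stem cells were called almost throughout. Of 27 measured, 8 were in the high band, 17 in the middle band and 2 were not called, with a median signal of 7.70 against 6.35 for all genes. This made 29.6% high and 92.6% called, against 10% and 53.1% of all genes. Hlf, a transcription factor of stem cells, read 10.28, 10.26, 10.40 and 10.41. Myct1 (10.22 ± 0.19), Meis1 (10.01 ± 0.14), the Tie2 ligand Angpt1 (9.83 ± 0.21) and Gata2 (9.65 ± 0.09) were also high. Procr, Slamf1 and Cd48, further surface markers by which stem cells are sorted within the gate, were in the middle band. Procr, the endothelial protein C receptor, read 7.59, 6.81, 7.49 and 7.28, lowest on array 22, and its SD of 0.35 placed it among the most variable 5% of called genes. Slamf1, which encodes CD150, stood near background at 6.20, 6.48, 6.40 and 6.52, while Cd48, carried by most progenitors outside the stem cell fraction, was at 8.08 ± 0.26. The angiopoietin receptors Tie1 (8.03 ± 0.16) and Tek (6.51 ± 0.18), the adhesion molecule Esam (6.85 ± 0.08), Fgd5 (6.60 ± 0.11) and Hoxb4 (6.56 ± 0.17) were called at low to middle signal. Ndn, a growth suppressor, read 6.0, 6.0, 6.47 and 6.63 and was not called (limma adjusted p = 0.0641), nor was Hoxb5 at 5.95 ± 0.10.

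The transcription factors of stem and progenitor cells were called without exception, while 53.1% of all genes were called. Of 27 measured, 16 were in the high band (59.3%, against 10% of all genes), 11 in the middle band and 0 among the variable genes, which hold 5% of all called genes. At 5% a list of 27 would hold few, so the 0 is near the share of all called genes. The median SD of the 27 was 0.128, against 0.126 for the high band as a whole and 0.143 for all called genes. Myb, needed for definitive blood formation, read 10.56, 10.65, 10.61 and 10.71, and the ETS-family repressor Etv6 stood at 10.41 ± 0.10. Lmo2 (9.90 ± 0.10) and its partner Ldb1 (9.86 ± 0.17), Runx1 (9.37 ± 0.19) and its partner Cbfb (9.32 ± 0.05), Erg (9.20 ± 0.18), Lyl1 (8.92 ± 0.22) and the myeloid and B cell factor Spi1 (9.21 ± 0.17) were high. Tal1, which binds DNA with Lmo2 and Ldb1, was in the middle band at 7.92 ± 0.10, as were Cebpa, the factor that starts granulocyte formation (7.80 ± 0.05), and Bmi1, a Polycomb protein of stem cell renewal (8.13 ± 0.13). The lowest means were those of Gfi1 (6.28 ± 0.05) and Mycn (6.88 ± 0.21), whose relative Myc was high at 9.31 ± 0.28. Mecom had the largest SD of the group, at 7.93 and 7.93 on arrays 21 and 22 against 8.44 and 8.48 on arrays 23 and 24. Its SD of 0.31 was just under 0.317, the lowest SD of the variable genes.

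**Figure D3:**
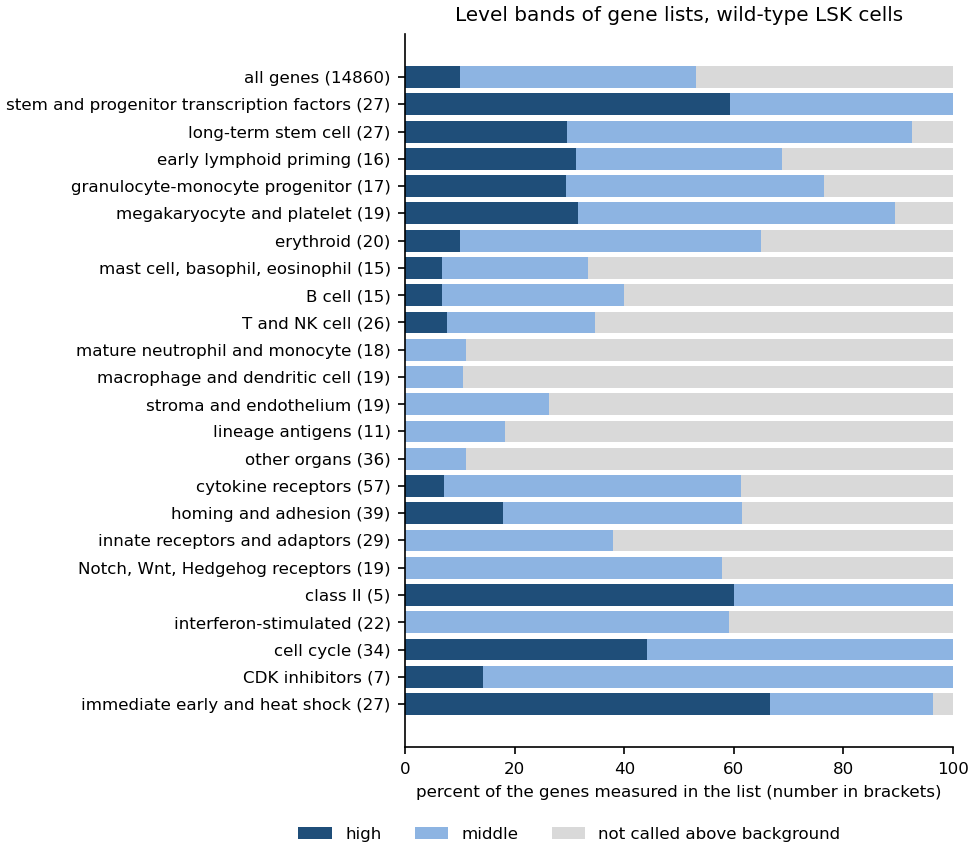
Share of the measured genes of each list (horizontal axis, percent; number of genes in brackets) in the high band, in the middle band and not called above background, with all 14860 genes in the top bar. The stem and progenitor transcription factors have 59.3% in the high band, against 10% of all genes. Of the mature neutrophil and monocyte genes 11.1% are called, against 53.1% of all genes.

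Early genes of the lymphoid lineage were found in all bands, with 5 high, 6 middle and 5 not called of 16 measured. As shares, 31.2% were high and 68.75% called, against 10% and 53.1% of all genes. Dntt, the enzyme that adds bases at joints of antigen receptor genes, read 10.34, 10.46, 10.25 and 10.70. Mef2c (10.15 ± 0.23), Ikzf1 (9.91 ± 0.07) and Flt3 were high, with Satb1 (8.57 ± 0.18) and Bcl11a (8.79 ± 0.14) in the middle band. The recombinase gene Rag2 (3.71, 3.48, 2.78 and 2.73) was below background on every array, and the interleukin-7 receptor Il7r (5.63 ± 0.23), Ccr9 (5.47 ± 0.23) and Ccr7 (5.25 ± 0.20), receptors of later lymphoid cells, were not called. Genes of B cells proper gave 1 high, 5 middle and 9 not called of 15, so that 40% were called against 53.1% of all genes. Cd37 was high at 9.11 ± 0.14, while Pax5 stood close to background at 6.44 ± 0.12. Ebf1, the factor that opens the B cell programme, read 7.05, 6.62, 7.27 and 7.49, and it and Cd79a were variable. Of 26 T and NK cell genes 17 were not called, so that 34.6% were called against 53.1% of all genes. The 2 high members, Nkg7 (10.27 ± 0.15), a granule protein, and the adaptor Lat (9.17 ± 0.10), are also known from other blood cells, and Cd28 (8.20, 8.23, 8.90 and 8.53) was in the middle band.

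The granulocyte and monocyte genes showed a division by stage. Of 17 progenitor genes 5 were high, 8 middle and 4 not called, whereas of 18 genes of mature neutrophils and monocytes 0 were high, 2 middle and 16 not called. The called shares were 76.5% and 11.1%, against 53.1% of all genes. In the high band were 29.4% and 0%, against 10% of all genes. Mpo, the peroxidase of primary granules, read 11.62, 11.60, 11.64 and 11.72, and the granule proteases Ctsg (9.28 ± 0.17) and Prtn3 (9.14 ± 0.07) were high too. The elastase gene Elane was in the middle band and variable, with 7.41, 6.69, 7.39 and 7.77, lowest on array 22. The growth factor receptors differed, with Csf3r for granulocyte colony-stimulating factor at 8.08 ± 0.13 and Csf1r for the macrophage factor not called at 5.50 ± 0.12. Genes of later granules lay below background, among them Ltf (4.79 ± 0.09), Camp (5.18 ± 0.18), Lcn2 (4.07 ± 0.11) and Mmp8 (3.56 ± 0.14). So did S100a8 (4.68 ± 0.27), another gene of mature neutrophils and monocytes. Cd14, the endotoxin co-receptor, was an exception at 7.44, 7.11, 8.18 and 8.21, higher on arrays 23 and 24. It and Itgam were the 2 called members, and without array 23 the count was 1. Among 19 macrophage and dendritic cell genes only the lysosomal Cd68 (7.73, 7.67, 7.70 and 7.36) and Hmox1 (6.97 ± 0.14), which breaks down haem, were called, while the complement genes C1qa (4.96 ± 0.10), C1qb (5.20 ± 0.29) and C1qc (5.46 ± 0.15) were not. That is 10.5% called, against 53.1% of all genes.

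Megakaryocyte genes were mostly called. Of 19 megakaryocyte and platelet genes 6 were high (31.6%, against 10% of all genes), 11 middle and 2 not called, with a median of 8.16. The called share was 89.5%, against 53.1% of all genes. Platelet factor 4, Pf4, read 11.41, 11.83, 11.54 and 11.51. The signalling protein Plek (11.33 ± 0.05), the thrombin receptor F2r (10.71 ± 0.14) and Itga2b, the integrin chain CD41 (9.27 ± 0.11), were high, and Vwf (8.16 ± 0.13), Gp9 (8.19 ± 0.07) and Ppbp (7.24 ± 0.16) were in the middle band. Of the platelet receptors, P2ry12 (4.52 ± 0.13) and Clec1b (3.71 ± 0.13) were below background. The erythroid list gave 2 high, 11 middle and 7 not called of 20, with a median of 6.78. Its shares, 10% high and 65% called, were near those of all genes, 10% and 53.1%. Its high members, the carbonic anhydrase Car2 (10.93 ± 0.09) and Apoe (9.45 ± 0.09), are not limited to red cells. The erythroid factors Gfi1b (8.31 ± 0.18), Gata1 (7.39 ± 0.09) and Klf1 (6.73 ± 0.30) and the erythropoietin receptor Epor (6.99 ± 0.08) were called, while Alas2 (5.34 ± 0.22), for haem synthesis, and the membrane proteins Slc4a1 (5.54 ± 0.13) and Epb42 (5.38 ± 0.14) were not. Of 13 called erythroid genes 8 were lowest on array 23, where 25.2% of all called genes were lowest, and Ermap, the most variable, read 7.23, 7.61, 6.78 and 7.49.

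Mast cell, basophil and eosinophil genes gave 1 high, 4 middle and 10 not called of 15. This made 6.67% high and 33.3% called, against 10% and 53.1% of all genes. The protease Cpa3 (7.87 ± 0.13), the basophil protease Mcpt8 (7.43 ± 0.10), Prss34 (7.08 ± 0.25) and Hdc, which makes histamine (6.56 ± 0.20), were in the middle band. Prg2, an eosinophil granule protein, read 8.41, 8.52, 8.73 and 9.89, so that array 24 stood above the other 3. It was in the middle band without array 24. The high-affinity IgE receptor gene Fcer1a (4.63 ± 0.41) and the interleukin-5 receptor Il5ra (2.81 ± 0.10) were not called. Genes of stroma and vessels were called in 5 of 19 cases (26.3%, against 53.1% of all genes). The highest of these, Pecam1 (8.11 ± 0.14) and Emcn (7.44 ± 0.16), are known from stem cells as well. The collagen genes Col1a2 (6.40 ± 0.21) and Col1a1 (6.38 ± 0.10), which mark stroma, were called too, close to background. The vessel cadherin Cdh5 (5.00 ± 0.09), Cxcl12 (4.61 ± 0.05), the leptin receptor Lepr (3.30 ± 0.12) and Adipoq (3.41 ± 0.15) were below background. Of 36 genes of other organs 4 were called (11.1%, against 53.1% of all genes), all at 6.75 or lower: Cela1, Cryaa, Acta1 and Ckm.

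Receptors for growth factors and cytokines ranged from the top of the array to its floor. Of 57 measured, 4 were high, 31 middle and 22 not called, with a median of 6.73. Their shares, 7.02% high and 61.4% called, were near those of all genes, 10% and 53.1%. Beside Kit and Flt3, the high members were Ifnar2 (9.40, 9.40, 9.61 and 9.64), a chain of the type I interferon receptor, and Il17ra (9.11, 9.38, 9.58 and 9.63), the interleukin-17 receptor. The middle band held the transforming growth factor beta receptors Tgfbr1 (8.15 ± 0.31), Tgfbr2 (7.92 ± 0.34) and Tgfbr3 (8.19 ± 0.14), Igf1r (8.44 ± 0.10), Ifngr1 (8.44 ± 0.34), Ifnar1 (7.99 ± 0.19), Il4ra (8.09 ± 0.17), the interleukin-3 receptor Il3ra (7.68 ± 0.16) and both tumour necrosis factor receptors, Tnfrsf1a (7.53 ± 0.12) and Tnfrsf1b (7.80 ± 0.34). The shared chain Il6st, by which interleukin-6 signals, was at 7.63 ± 0.22, whereas its partners Lifr (3.6 ± 0.08), Osmr (3.73 ± 0.08) and Cntfr (5.6 ± 0.12) were not called. Receptors of epithelia, Egfr (4.22 ± 0.04), Met (4.37 ± 0.24) and Fgfr2 (4.08 ± 0.09), were below background. Fgfr1 had the largest SD, at 7.33, 7.26, 7.97 and 8.05, lower on arrays 21 and 22 than on arrays 23 and 24. Ifngr1, Tgfbr2 and Tnfrsf1b were the other variable receptors. Of the 35 called receptors 22 were lowest on array 22, where 27.5% of all called genes were lowest.

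Molecules of homing and adhesion gave 7 high (17.9%, against 10% of all genes), 17 middle and 15 not called of 39, with 61.5% called against 53.1% of all genes. The integrin chain Itgb1 read 10.21, 10.25, 10.38 and 10.30, and Cd47, the signal that stops phagocytosis, stood at 10.27 ± 0.10. Cd44, which binds hyaluronan, was high and variable at 8.80, 9.32, 9.42 and 9.54, and the selectin ligand Selplg was at 9.03 ± 0.15. S1pr1, the receptor that leads cells out of tissues into blood, read 8.90, 8.94, 9.60 and 9.53, with arrays 23 and 24 above arrays 21 and 22. Cxcr4, the receptor for the niche chemokine Cxcl12, was just under the high band at 8.84 ± 0.31, as was Itga6 (8.81 ± 0.15), and Itga5 was lower at 8.31 ± 0.15. Other chemokine receptors were mostly at the floor, including Cxcr2 (5.11 ± 0.25), Cxcr3 (4.94 ± 0.30), Cxcr5 (3.74 ± 0.32), Ccr1 (3.56 ± 0.17), Ccr2 (5.28 ± 0.26) and Ccr6 (3.39 ± 0.11), with Cx3cr1 called at 6.90 ± 0.07.

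Of 29 measured genes of innate sensing 0 were high, 11 middle and 18 not called, so that 37.9% were called against 53.1% of all genes. The called ones were mainly adaptors and kinases. Irak1 (8.79 ± 0.11), Irak3 (7.87 ± 0.04), the adaptors Myd88 (7.59 ± 0.11) and Tirap (7.07 ± 0.18), and Traf6, the ubiquitin ligase downstream of them (7.95, 8.20, 8.12 and 8.33), were in the middle band. Of the Toll-like receptors, Tlr2 was called (6.61, 7.38, 7.21 and 7.16), Tlr4 (6.12 ± 0.24) and Tlr9 (6.12 ± 0.17) had means above background without a call, and Tlr1, Tlr3, Tlr5, Tlr6, Tlr7, Tlr8, Tlr11, Tlr12 and Tlr13 lay below it. The co-receptor Ly96, which Tlr4 needs to sense endotoxin, was at 3.94 ± 0.66. Receptors of the Notch, Wnt and Hedgehog pathways gave 0 high, 11 middle and 8 not called of 19, so that 57.9% were called against 53.1% of all genes. Notch2 (8.86, 8.49, 8.92 and 8.90) was just under the high band and within it when array 22 was left out, and Smo (8.25 ± 0.13), Notch1 (8.04 ± 0.14) and Lrp5 (8.03 ± 0.17) followed. Fzd4 was variable through array 23, at 6.37, 6.44, 7.29 and 6.61.

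Cell cycle genes were all called, together with the inhibitors that oppose them. Of 34 measured, 15 were high (44.1%, against 10% of all genes) and 19 middle, while 53.1% of all genes were called. Cdk4 (10.75 ± 0.09), Cdk6 (10.72 ± 0.16), Ccnd2 (10.04 ± 0.06) and the replication licensing factor Mcm6 (10.01 ± 0.09) had the highest means, and the cyclins of S phase entry, Ccne1 (6.66 ± 0.31) and Ccne2 (6.34 ± 0.21), the lowest. Mki67, present in dividing cells, read 9.36, 10.06, 9.63 and 10.14, and Top2a read 8.89, 9.50, 9.18 and 9.50, both higher on arrays 22 and 24. Of the 34 genes 19 were lowest on array 23, 13 on array 21 and 0 on array 24, where 25.2%, 37.1% and 10.2% of all called genes were lowest. Among 7 inhibitors of cyclin-dependent kinases, Cdkn1a, the p53 target p21, was high at 11.58, 11.49, 11.58 and 11.51. The other 6 were in the middle band, among them Cdkn1b (8.22 ± 0.03) and Cdkn1c, linked to stem cell quiescence (6.69 ± 0.10). Of these, Cdkn2a (6.45 ± 0.15) and Cdkn2b (6.16 ± 0.06, limma adjusted p = 0.0235) lay close to background.

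Class II antigen presentation genes were called in 5 of 5 measured, led by the invariant chain Cd74 at 10.06, 9.73, 9.93 and 9.75, with H2-DMa (9.05 ± 0.18) and H2-Aa (8.93 ± 0.23) also high. This made 60% high and 100% called, against 10% and 53.1% of all genes. Genes that interferon induces gave 0 high, 13 middle and 9 not called of 22, so that 59.1% were called against 53.1% of all genes. Trim30a (8.63 ± 0.17), Gbp3 (8.08 ± 0.24), Samd9l (7.68 ± 0.11) and Bst2 (7.65 ± 0.18) led them, and the antiviral genes Mx1 (3.02 ± 0.23) and Ifit1 (4.43, 4.20, 3.14 and 5.60) were below background. Ifit1 spread over 2.46 between arrays 23 and 24.

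Most genes varied little between the 4 arrays, 1 per mouse. The median SD was 0.146 for genes not called and 0.143 for called genes. Of the called genes 6401 (81.2%) kept within a range of 0.5, while 73 (0.926%) spanned at least 1, a 2-fold difference. Pairs of arrays correlated across genes at 0.986 (21 and 24) to 0.992 (22 and 23), a description over genes that are not independent. Arrays 21 and 24 lay at opposite ends of the main axis of variation, at 14.5 and -11.1 on a component with 49.9% of the variance, and 50 called genes differed at least 2-fold between them, against 7 between arrays 21 and 23. The mean signal of called genes was 7.95 on array 24 against 7.81 to 7.84 on the others. With each array centred on its median, 314 of the 394 variable genes described below were again among the most variable 5%, and after quantile normalization 281 were. The steadiest genes of the high band were Chd4 (10.17, 10.16, 10.16 and 10.14), Snrnp70 (10.53 ± 0.01) and Pabpc1.

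The most variable 5% of called genes were 394 genes with an SD of at least 0.317, 48 of them high and 346 middle. They were chosen for their spread, so the spread itself is a description. Of these, 245 (62.2%) were highest on array 24 and 236 (59.9%) lowest on array 21, against 49.4% and 37.1% of all called genes. On the 3 labelled transgenic arrays, which had no part in the choice, their median SD was 0.284 against 0.211 for the other called genes. Those other genes had a median SD of 0.138 on the wild-type arrays. Labelled transgenic array 05 lay lower over called genes, with a mean of 7.65 against 7.99 and 7.95 on arrays 03 and 04. What this shift adds to the SD there was not tested. The variable genes also had a lower median signal, at 7.39 against 7.71 for all called genes. Without array 21 or without array 24, 230 of the 394 were again among the most variable 5%.

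**Figure D4:**
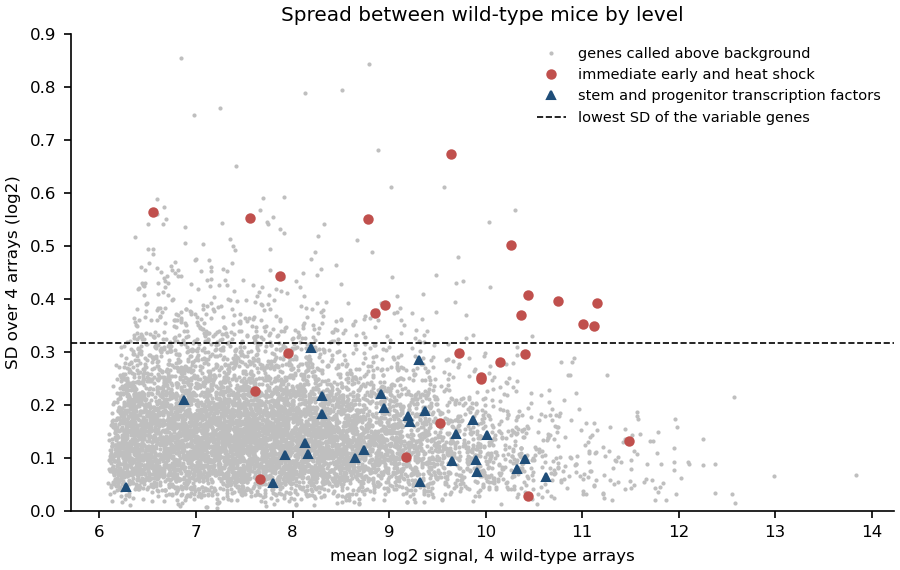
SD over the 4 wild-type arrays (vertical axis, log2) against mean log2 signal (horizontal axis) for each gene called above background, with the immediate early and heat shock list as red circles, stem and progenitor transcription factors as blue triangles and the lowest SD of the variable genes, 0.317, as a dashed line. Of 26 called immediate early and heat shock genes 14 lie on or above the line, and of 27 transcription factors 0, against 5% of all called genes.

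The immediate early and heat shock list held 14 variable genes, the most of any list counted. Immediate early genes encode transcription factors and phosphatases that cells switch on within minutes of a stimulus, without new protein synthesis, and heat shock genes encode chaperones. Of 27 measured, 18 were high, 8 middle and 1 not called (Hsp90aa1, 3.79 ± 0.33), with a median of 9.725. This made 66.7% high and 96.3% called, against 10% and 53.1% of all genes. Of the 26 called, 14 (53.85%) were among the variable genes, against 5% of all called genes. The list was part of earlier work on these arrays, so its count is a description.

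To show the genes beside their regulatory sequence, the 250 bases before the transcription start are given for Fos, Dusp1 and Hspa1a, which varied, and for Ier3, which did not. The sequences are RefSeq's on GRCm38.p6, a later build than the mm9 named for the arrays, read 5′ to 3′ on the gene's strand. Capitals mark TGACG or its reverse complement CGTCA, the core of the cyclic AMP response element, and GAANNTTC, a heat shock element core.
Fos, chr12:85473640-85473889, plus strand: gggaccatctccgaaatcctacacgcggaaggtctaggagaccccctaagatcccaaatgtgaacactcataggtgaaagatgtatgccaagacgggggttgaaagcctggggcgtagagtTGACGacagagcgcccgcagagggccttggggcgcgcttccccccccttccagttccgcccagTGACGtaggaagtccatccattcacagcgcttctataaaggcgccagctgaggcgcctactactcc
Dusp1, chr17:26508473-26508722, minus strand: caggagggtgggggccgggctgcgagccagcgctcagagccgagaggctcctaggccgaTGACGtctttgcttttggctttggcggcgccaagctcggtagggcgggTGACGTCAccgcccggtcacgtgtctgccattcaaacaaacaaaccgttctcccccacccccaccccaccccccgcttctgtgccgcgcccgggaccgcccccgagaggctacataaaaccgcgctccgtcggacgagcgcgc
Hspa1a, chr17:34972157-34972406, minus strand: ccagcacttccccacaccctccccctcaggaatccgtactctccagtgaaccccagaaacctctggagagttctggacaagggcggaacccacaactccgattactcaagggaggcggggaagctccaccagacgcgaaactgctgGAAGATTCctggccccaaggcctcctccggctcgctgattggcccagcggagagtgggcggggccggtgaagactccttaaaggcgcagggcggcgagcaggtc
Ier3, chr17:35821463-35821712, plus strand: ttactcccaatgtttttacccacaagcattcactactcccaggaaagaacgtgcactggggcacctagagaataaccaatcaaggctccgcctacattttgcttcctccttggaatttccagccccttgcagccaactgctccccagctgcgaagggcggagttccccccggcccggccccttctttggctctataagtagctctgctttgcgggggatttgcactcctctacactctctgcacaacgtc
Promoters were found for 22 of the 26 called members. The motif TGACG, searched on both strands, was in 12 of these 22 (54.5%) and in 19.8% of the 27025 genes with a promoter of that length. It was in 7 of 12 variable members and 5 of 10 others. GAANNTTC, its own reverse complement, was in 3 of 22 (13.6%) against 7.73% of all genes, and the 3 were Hspa1a, Jun and Fosl2. The CArG box, bound by serum response factor, was in 2 of 22 (9.09%) against 1.62%, and the full palindromic cyclic AMP response element, which holds TGACG on both strands, in 2 of 22 against 1.77%. These are matches of letters in a short window, and overlapping matches, as in the Dusp1 promoter, were counted separately.

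Fos, a subunit of the AP-1 transcription factor, read 10.23, 10.14, 9.38 and 8.81, the largest SD of the list at 0.67. Its partner Jun read 11.29, 11.34, 10.79 and 10.64. For both, arrays 21 and 22 were above array 23, and array 24 was lowest. Dusp1, a phosphatase that switches off MAP kinases, read 10.92, 10.58, 10.25 and 9.98. Egr1, a zinc finger factor, read 11.10, 11.04, 10.62 and 10.25, and Btg2, which slows division, read 10.74, 10.57, 10.08 and 9.64. The same arrays were thus high and low for a phosphatase, a zinc finger factor and an antiproliferative gene. Atf3, induced by stress, read 11.56, 11.29, 11.12 and 10.63, and Klf6 read 11.48, 11.33, 10.95 and 10.71. Klf2, also known for keeping lymphocytes quiescent, was in the middle band at 8.05, 8.02, 7.21 and 6.97. The heat shock genes Hspa1a, the inducible HSP70, and Hsph1, its cofactor, were also lowest on array 24. Hspa1a read 9.17, 9.25, 8.65 and 8.06, and Hsph1 read 10.44, 10.74, 10.44 and 9.86, with arrays 21 and 23 alike.

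Of the 26 called members 18 were lowest on array 24, where 10.2% of all called genes were lowest, and 13 were highest on array 21. The mean of the called members above the mean of all called genes was 1.903, 1.78, 1.665 and 1.271 on arrays 21 to 24. Not every member followed this order. Fosl2 (8.57, 8.49, 9.15 and 9.19), Nr4a2 (8.60, 8.64, 9.29 and 9.29) and Nr4a3 (7.84, 7.58, 8.21 and 8.18) were higher on arrays 23 and 24, opposite to Fos. Ier3 (10.41, 10.44, 10.42 and 10.47) and Nr4a1, a nuclear receptor (11.55, 11.32, 11.61 and 11.43), differed little, at an SD of 0.03 and 0.13. Egr3 read 6.77, 5.94, 7.23 and 6.28, highest on array 23 and lowest on array 22. Outside the list, genes with the same order as Fos included Ppp1r15a (10.55, 10.42, 9.75 and 9.40), a stress-response phosphatase subunit, Rhob (9.41, 9.36, 8.85 and 8.49) and Nfkbiz (9.89, 9.71, 9.22 and 9.11), chosen after their values were seen.

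**Figure D5:**
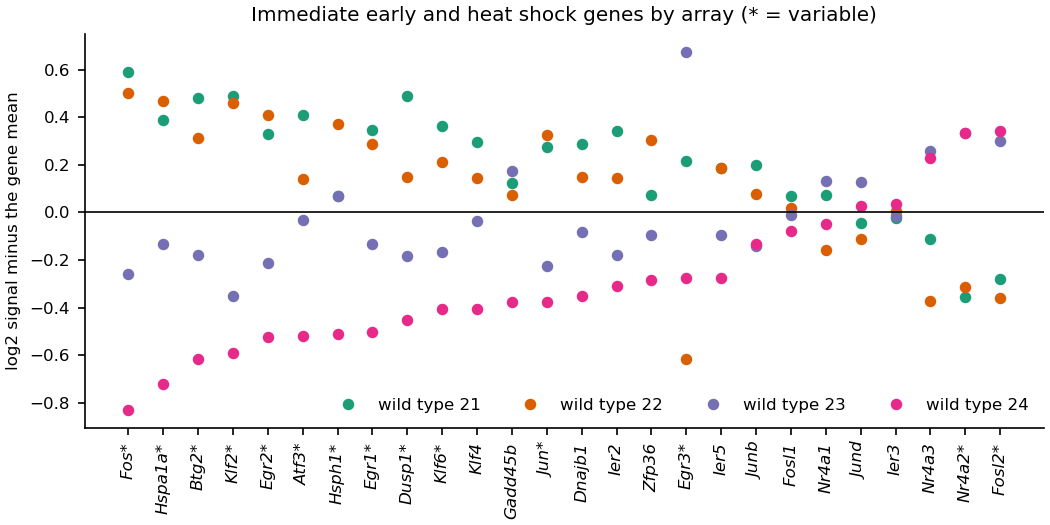
Log2 signal of each called immediate early and heat shock gene minus its own mean (vertical axis), with 1 point per wild-type array and genes ordered by array 24 (horizontal axis; an asterisk marks a variable gene). Array 24 is lowest for 18 of 26 genes, and Fosl2, Nr4a2 and Nr4a3 at the right run the other way.

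The largest SD among all called genes belonged to genes of mixed function. Selenok, a selenoprotein of the endoplasmic reticulum, read 5.71, 7.53, 6.65 and 7.47 (SD 0.85), and the ribosomal protein gene Rpl4 read 7.42, 9.32, 8.64 and 8.68. With Elob (6.51, 7.90, 7.37 and 7.87), Hmgn5 (8.15, 9.56, 9.12 and 9.25) and Rnf5 (6.04, 7.30, 6.26 and 6.78) they were lowest on array 21 and highest on array 22. Others stood out on array 24 alone. Mpdu1, needed for glycan assembly, read 8.69, 8.17, 8.31 and 10.02, Mgst1, a glutathione transferase, read 6.39, 6.78, 6.67 and 8.07, and Zfp955a read 7.42, 7.72, 7.74 and 8.77. Acyp1 (9.82, 10.29, 10 and 11.10) had the same array on top, as had Prg2. A further group was higher on arrays 23 and 24 than on arrays 21 and 22: Ell2, an elongation factor of RNA polymerase II (7.23, 7.72, 8.71 and 8.87), Ccdc71l (6.69, 6.56, 7.58 and 8.16), the transcription factor Creb5 (7.33, 7.07, 8.0 and 8.35) and Dgat1, which makes triglycerides (7.34, 7.33, 8.10 and 8.43). The metallothionein Mt2, which binds zinc, read 8.86, 9.93, 9.29 and 10.21. Zfp296, Gm20735 and Zfp580 completed the first 20, with SDs of 0.59, 0.57 and 0.57.

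Set against the 3 labelled transgenic arrays, few clusters passed the threshold of the test, which does not measure how alike the groups are. Differences that missed it included Ebf1 (-1.43), Cd74 (-1.08) and Myc (1.06), transgenic minus wild type (limma adjusted p = 0.279, 0.227 and 0.279). With limma on all 7 arrays, 5 of 23332 clusters (0.0214%) passed an adjusted p of 0.05, all lower on the labelled transgenic arrays, while 1218 were higher and 1179 lower at an unadjusted p under 0.05. The genes named by 1 symbol among them were the Y-linked Eif2s3y and Kdm5d and the adhesion molecule Epcam. Eif2s3y read 8.05, 8.51, 8.59 and 8.64 on the wild-type arrays, a difference of -5.45 (transgenic minus wild type, adjusted p = 1.82e-05), and Kdm5d read 6.41, 6.62, 6.75 and 6.95, a difference of -2.63 (adjusted p = 0.00528). Y-linked transcripts were therefore called on the wild-type arrays and lay below background on the others, and genotype and whatever moves with these transcripts cannot be told apart. Epcam read 6.83, 6.73, 6.69 and 6.83, a difference of -1.01 (adjusted p = 0.0399). It was lost when any of the 7 arrays was left out (adjusted p = 0.0893 to 0.29), and Kdm5d was lost without labelled transgenic array 05 (adjusted p = 0.0641). None of the 394 variable genes was called, against 0.0214% of all clusters. They were picked for a wide wild-type spread, which makes a call less likely, so this count says nothing about genotype. Traf6 itself read 8.06, 8.14 and 7.52 on the labelled transgenic arrays 03, 04 and 05, within or below the wild-type values. Whether the probes of its cluster match the transgene is not given, so the label was not tested by this level. Array 05, with the lowest value, also had a lower mean over called genes, 7.65 against 7.99 and 7.95 on arrays 03 and 04.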

How the data were processed

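Total RNA of sorted LSK cells was amplified and labelled with NuGEN kits and hybridized to Affymetrix mouse exon arrays, per the labels' protocols. The deposited values are log2 signals computed by the authors using RMA (per the submitters' processing notes, where mm9 is also named). RMA settings and the annotation release are not given in the sources used here. RMA equalizes arrays, so differences shared by most genes are largely removed. The mean of called genes still differed between arrays and was lowest on labelled transgenic array 05, at 7.65. All 7 value columns were used, and exon-level values were not analysed here. Gene symbols came from the platform annotation (1019 clusters had several symbols and 7317 none) and were compared through Entrez identifiers with RefSeq's GRCm38 table, which changed 0 symbols and left 55 unmatched.

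Levels were tested with limma 3.58.1 in R 4.3.3 (an intercept on signal minus background, lmFit and eBayes), and wild type against labelled transgenic in a fit with 1 term, genotype, over all clusters. The number of arrays limits the precision. P-values weigh a mean or a difference against the spread between arrays. With 1 array per mouse, spread between mice and spread of the assay cannot be told apart. Code was tested on simulated data. Members, the 25 gene lists and the tests were chosen with earlier results of these data known. The rule named 8 fixed genes, the 15 highest means, the 20 largest SDs among called genes, in each list the 4 highest, 2 lowest and most variable members, and genes past the threshold in the genotype comparison. Other list members named were chosen after their values were seen. Alternatives were other background levels (99th percentile, median plus 1, genes of other organs), an adjusted p of 0.01, an 80th percentile for the high band, quantile normalization, centring, a trend with robust prior, a filter below the 40th percentile, other measures of spread, and leaving out each array. Tables and figures used Python 3.11.15 with pandas 2.3.3, numpy 2.4.6 and matplotlib 3.10.9.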

Additional observations from a re-analysis of the deposited data

Results flagged for a closer look

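Of the 175 named genes 7 had an array far from the other 3 by Dixon's gap test, which chance meets in about 5% of groups. Among all called genes 366 (4.641%) did. Array 24 stood apart for 4 of the 7. B2m was at 12.60 there, against 12.53 to 12.54 on the others. Cd68 was lower on array 24, at 7.36 against 7.67 to 7.73, and Epb42 was lower there too, at 5.17 against 5.43 to 5.46, below background on every array. Acta1, a muscle actin, was at 6.56 on array 24 against 6.41 to 6.43. On array 21 Ltb, a lymphotoxin chain, was at 8.72 against 7.84 to 7.96. On array 22 Notch2 was at 8.49 against 8.86 to 8.92, and on array 23 Cela1, a pancreatic protease, was at 6.93 against 6.68 to 6.70. The mean of the 13 called interferon-stimulated genes was 7.42 on array 24 against 7.165, 7.205 and 7.186 on arrays 21 to 23, and relative to all called genes it was -0.527 there against -0.647, -0.635 and -0.645.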

How the results depend on the processing

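The count of genes above background stayed within 1.5 times of 7887 under the 10 alternatives tried, from 5819 (99th percentile of the sensory receptors) to 11170 (their median plus 1). The middle band held 9684 genes under the median plus 1, and the high band 2972 with the 80th percentile. Under the 99th percentile the called members numbered 0 for lineage antigens, 1 for mature neutrophils and monocytes, 2 for B cells, 4 for T and NK cells, 2 for stroma, 3 for kinase inhibitors, 7 for interferon-stimulated genes, 1 for Y-linked genes and 0 for other organs. Under the median plus 1 they numbered 5 for lineage antigens, 10 each for mature neutrophils and monocytes, macrophages and dendritic cells, mast cells, B cells and stroma, 20 for erythroid genes, 18 for T and NK cells and for Notch and Wnt receptors, 19 for innate sensing and 16 for other organs. With the genes of other organs as background they numbered 0 for lineage antigens, 1 for mature neutrophils and monocytes, 5 for T and NK cells, 2 for stroma, 1 for Y-linked genes and 1 for other organs. These levels move the line that calls are made against, so lists near background move most. At an adjusted p of 0.01 the lineage antigens had 0 called members and mature neutrophils and monocytes 1. Leaving out each array gave 0 to 2 called lineage antigens and 1 to 2 mature neutrophil and monocyte genes (lowest without array 23), 0 to 1 high members for mast cells (0 without array 24) and 0 to 1 for Notch and Wnt receptors (1 without array 22). It left 230 to 330 of the 394 variable genes, and 2 to 4 clusters between the genotypes, 2 without labelled transgenic 05 and 3 without wild type 21, 22 or 24. The variable immediate early and heat shock genes numbered 14, and 11 by range, 16 relative to genes of like level, 19 after quantile normalization, 18 after centring, 10 to 15 without 1 array (10 without array 24), and 14 when genes not called were ranked too, a setting chosen after seeing the data. Epcam was lost after centring (-0.95, adjusted p = 0.0853 in limma). No paired analysis was possible because wild-type and labelled transgenic mice share no replicate number. Signals near background limit what can be said of low genes.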

Other observations

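Some genes with the widest spread were not called above background because the test weighs the mean against that spread, so they are in neither band; they were chosen after their values were seen. Eva1b read 6.49, 6.67, 6.55 and 9.54 on arrays 21 to 24, an SD of 1.48 that rested on array 24. Slbp, which binds the ends of histone messages, read 4.86, 7.07, 5.84 and 6.84. Rhag, an erythroid membrane protein, read 6.45, 7.27, 5.57 and 6.81.

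Some further variable genes were also chosen after their values were seen. Casp1 (6.68, 7.58, 7.55 and 7.69) and Aim2 (9.05, 9.92, 9.90 and 9.92), both of inflammasomes, were lower on array 21 than on the other 3. The chemokine Ccl3 read 10.45, 10.27, 10.24 and 10.95, highest on array 24. Cd274, the ligand of an inhibitory T cell receptor, read 6.33, 6.85, 6.60 and 7.27, and Cd83, a surface protein of activated cells, read 5.95, 6.46, 6.35 and 6.79, both lowest on array 21 and highest on array 24, the order of 170 of the 394 variable genes (43.15%).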
